A study of Mus musculus with 240 samples.

Results

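The data described here compare tdTomato-positive oligodendrocyte precursor cells (OPCs) that lack Trp53 and Nf1 at 90 days after the start of tamoxifen treatment (days post induction, dpi) with such cells at 12 dpi, in bulk RNA-seq libraries from mouse. Samples were chosen by their labels alone, as bulk samples of genotype Trp53-/- Nf1-/- (here CKO) at 12 or 90 dpi. They are 18 of the 240 libraries of the series. Libraries that carry the same animal number were summed, which left 14 animals. The 12 dpi group holds 7 animals (8 libraries, 4 females and 3 males) and the 90 dpi group holds 7 others (10 libraries, 4 females and 3 males). Both groups carry the deletions, the fluorescent label and the tamoxifen treatment, so they differ in the time since tamoxifen and in the age that goes with it, and these cannot be told apart. The labels used here name neither the Cre driver, the brain region nor the age at tamoxifen. Cells were cut from 10 µm brain sections by laser capture and their RNA was amplified before sequencing. For reference the series also holds wild-type bulk OPCs at 12 and 90 dpi (5 animals each), bulk tumors at 150 dpi (7 animals) and CKO libraries of 10 cells each. Nothing in the labels says how many cells or captures made up a bulk library, and p-values measure the spread between animals.

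OPCs are the dividing glia of the adult brain. They carry the PDGF receptor alpha and the NG2 proteoglycan, and they either renew themselves or leave the cell cycle, pass through a committed stage and make myelin. Nf1 encodes neurofibromin, which switches RAS off, and Trp53 encodes p53, which halts division and triggers cell death after damage. Loss of both genes in OPCs of mice gives rise to malignant glioma after a delay, and the 2 times compared here lie before the tumors of this series.

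The summed libraries held between 2.41 and 27.8 M counts (M, 1000000) per animal at 12 dpi (median 16.0 M) and between 4.11 and 30.0 M at 90 dpi (median 19.1 M), and the groups did not differ in total count (two-sided exact permutation test, p = 0.833) or in the number of genes detected (p = 0.931). One library stood apart. It is the second of the 2 libraries of animal CKO_20647 (90 dpi, male), in which 13060 genes were detected against 15975 to 19303 in the other 17 libraries. Its median correlation with the libraries of other animals was 0.792 against 0.950 to 0.969 for the others. In that library 200 genes exceeded 4 times the highest value of any other library (after adding 5 CPM to each), against 0 or 1 gene in each of the 16 libraries of other animals. Among them were Neurod6 and Neurod2, transcription factors of cortical excitatory neurons, at 301.9 and 126.6 counts per 1000000 (CPM), where those 16 libraries lay at or below 4.24 CPM. Where this animal stood apart in a result below, the value without this library or the level in each of its 2 libraries is mostly given beside it. Levels of single libraries are CPM without TMM scaling.

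The targeted genes were measured first. Nf1 lay at 175, 180 and 217 CPM (lowest, median and highest animal) at 12 dpi and at 149, 178 and 303 CPM at 90 dpi, and the groups overlapped (log2 difference 0.02, SE 0.13, exact permutation p = 0.945, and -0.10 without the library that stood apart). Against wild-type OPCs, scaled over all 37 bulk animals, Nf1 was at 191 ± 16.1 CPM (SD, n = 7) in CKO and 312 ± 41.2 CPM (n = 5) in wild type at 12 dpi, with no overlap. At 90 dpi the ranges overlapped, at 149.5 to 301.6 CPM in CKO (n = 7) and 274.3 to 343.0 CPM in wild type (n = 5). The highest CKO animal was CKO_20647, whose first library held Nf1 at 180.1 CPM and whose second held it at 336.9 CPM. Trp53 lay at 26.4, 32.2 and 36.7 CPM at 12 dpi and at 15.8, 28.6 and 37.9 CPM at 90 dpi (exact permutation p = 0.177), and its level did not separate CKO from wild type at 12 dpi (31.4 ± 3.7 CPM, n = 7, against 32.3 ± 8.8 CPM, n = 5). A count over the whole gene does not show which exons are missing, so a Trp53 level like that of wild type checks nothing about the deletion. Trp53 also has a near-identical copy, Gm11032, and Nf1 overlaps Omg, Evi2a, Evi2b and 3 other genes on the opposite strand, so reads of these could be shared.

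Markers of OPCs were present in every animal. The summed level of 8 OPC markers was 1952, 2367 and 3123 CPM at 12 dpi and 2034, 2715 and 3228 CPM at 90 dpi. Markers of other cells were present too. The 7 neuron markers summed to 5596, 7277 and 8377 CPM at 12 dpi and 6995, 7925 and 13029 CPM at 90 dpi, more than the OPC markers, and the highest value was that of animal CKO_20647. The 7 oligodendrocyte markers summed to 1705, 2192 and 3032 against 1228, 2086 and 3043 CPM, and the 6 astrocyte markers to 670, 968 and 1183 against 673, 815 and 1228 CPM. Microglial markers (84.7 to 136 CPM against 62.6 to 124 CPM) and endothelial markers (102 to 184 CPM against 85.6 to 143 CPM) were low in both groups, and none of these markers was at 0 in all animals of a group. In libraries of this kind a lower level of a gene cannot tell fewer cells of a type from less RNA per cell.

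One gene passed the test among 15085. With edgeR's quasi-likelihood test and Benjamini-Hochberg adjustment over all genes tested, Susd5 was called at 90 against 12 dpi (0.00663% of genes called), and no gene was called lower (501 genes were lower at an unadjusted p under 0.05). Without adjustment 1131 genes had p under 0.05 (7.5%), of which 630 were higher (4.18%) and 501 lower (3.32%) at 90 dpi. DESeq2 called 34 genes (0.228%), 21 higher (0.141%) and 13 lower (0.0872%). The 7 animals of one group did not overlap the 7 of the other for 14 genes (0.0928%), 8 of them higher at 90 dpi (0.053%) and 6 lower (0.0398%). The verbs rose and fell are used below only for called genes, and every other difference is given as its values.

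Susd5, on chr9:114057140-114098728 (plus strand, GRCm38), encodes a membrane protein with a sushi domain. It lay at 5.00, 8.59 and 11.9 CPM at 12 dpi and at 14.5, 23.7 and 29.5 CPM at 90 dpi, so that every animal at 90 dpi was above every animal at 12 dpi. Its level rose from 8.49 ± 2.13 to 22.4 ± 5.05 CPM (SD, n = 7 each), a fold change of 2.61 (log2 1.38, SE 0.19, edgeR adjusted p = 0.0273). With 1 animal left out the log2 change stayed between 1.31 and 1.47, but the adjusted p ran from 0.00882 to 0.125 and the call was lost in 9 of 14 cases. In wild-type OPCs the change of Susd5 over the same times was 0.93 (log2, adjusted p = 0.053), and the difference between CKO and wild type was 0.44 (SE 0.30, unadjusted p = 0.164). In the tumors Susd5 lay at 74.4 ± 44.8 CPM (SD, n = 7).

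Next to Susd5 stood 3 genes that were called as well once the second library of animal CKO_20647 was left out, when edgeR called 4 genes. Susd5, Il33 and Dnah5 are named after their values were seen. Il33, on chr19:29925114-29960718 (plus strand), encodes interleukin 33, an alarmin made by oligodendrocyte-lineage cells and astrocytes. Its levels were 12.3, 14.6 and 16.9 CPM at 12 dpi and 18.8, 28.8 and 39.4 CPM at 90 dpi without overlap (log2 0.95, SE 0.15, adjusted p = 0.0648, and 0.0134 without that library). Neu4, on chr1:94020451-94028334 (plus strand), encodes a sialidase found in OPCs. It lay at 35.8, 53.4 and 65.8 CPM and at 50.3, 105.9 and 126.4 CPM (log2 0.94, SE 0.17, adjusted p = 0.18, and 0.0134 without that library). Only animal CKO_20647 was within the 12 dpi range. Dnah5, on chr15:28203752-28472045 (plus strand), encodes a dynein heavy chain of motile cilia and was low throughout, at 4.02, 6.17 and 9.01 CPM and at 9.78, 13.0 and 18.2 CPM without overlap (log2 1.19, SE 0.22, adjusted p = 0.18, and 0.0312 without that library). In wild type the changes of these genes were 0.38 for Il33, 0.38 for Neu4 and -0.47 for Dnah5 (log2), and none of the differences between genotypes passed adjustment. The smallest unadjusted p among the differences of the 3 was that of Dnah5 (1.61, SE 0.47, p = 0.00224).

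**Figure D1:**
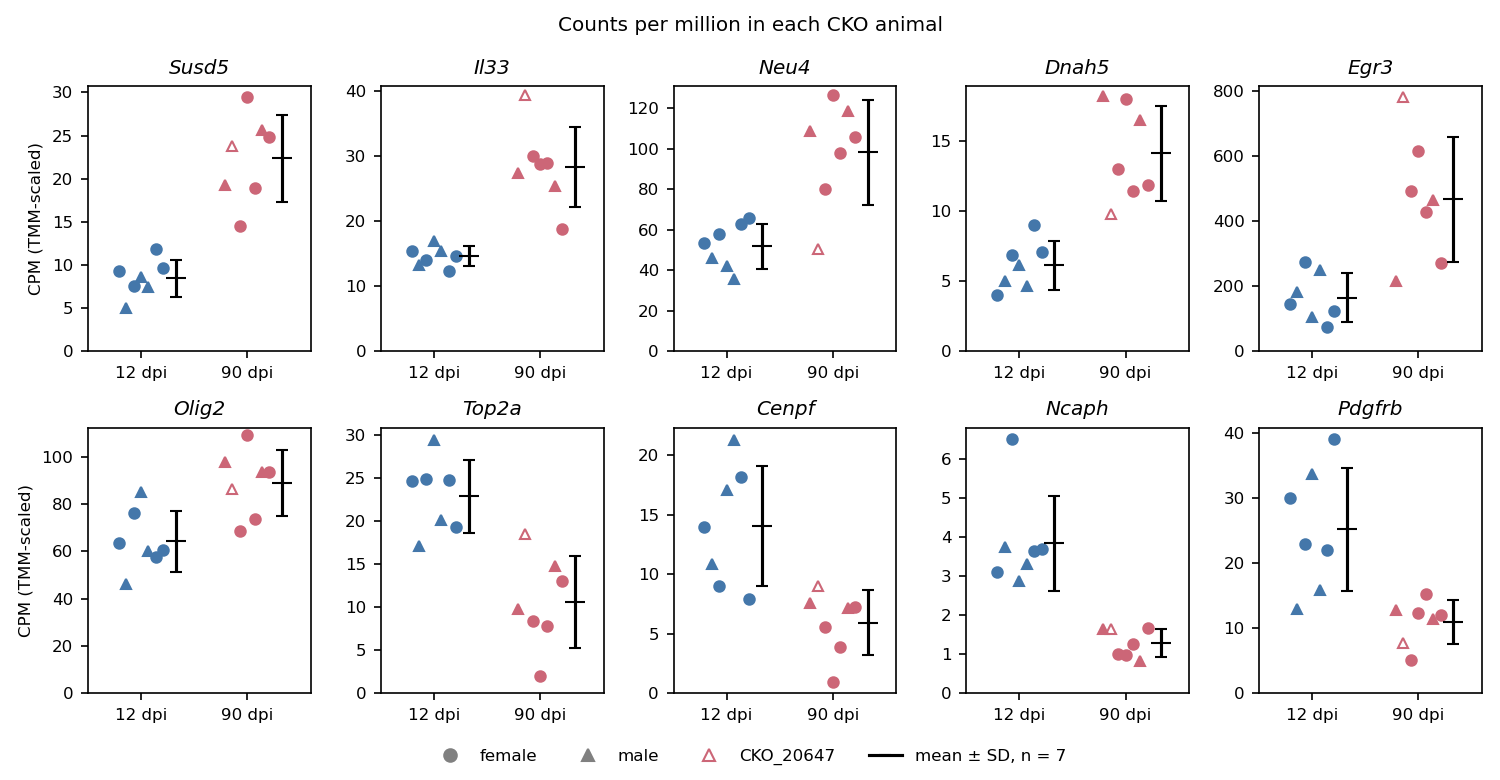
Levels of 10 genes in each animal, with CPM (TMM-scaled) on the y axis and the 2 times on the x axis. Circles are females, triangles are males, the open triangle is animal CKO_20647, and bars are the mean and SD of 7 animals; Susd5 runs from 5.00 to 11.9 CPM at 12 dpi and from 14.5 to 29.5 CPM at 90 dpi.

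Beyond these genes the comparison was read in 30 lists of genes that fit the cells and the deleted genes, holding 626 different genes. Over all 15085 genes tested the median log2 difference was 0.02, and 53.2% of genes were above 0. None of the lists held a called gene, since Susd5 is in none of them. The mitosis list had the lowest median (-0.80), followed by pericyte and fibroblast markers (-0.61), and the list of activity-induced early genes had the highest (0.57). DNA replication (-0.29), endothelial markers (-0.37) and the single haemoglobin gene tested (-0.40) came next below, and the other 24 lists had medians from -0.17 to 0.23.

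**Figure D2:**
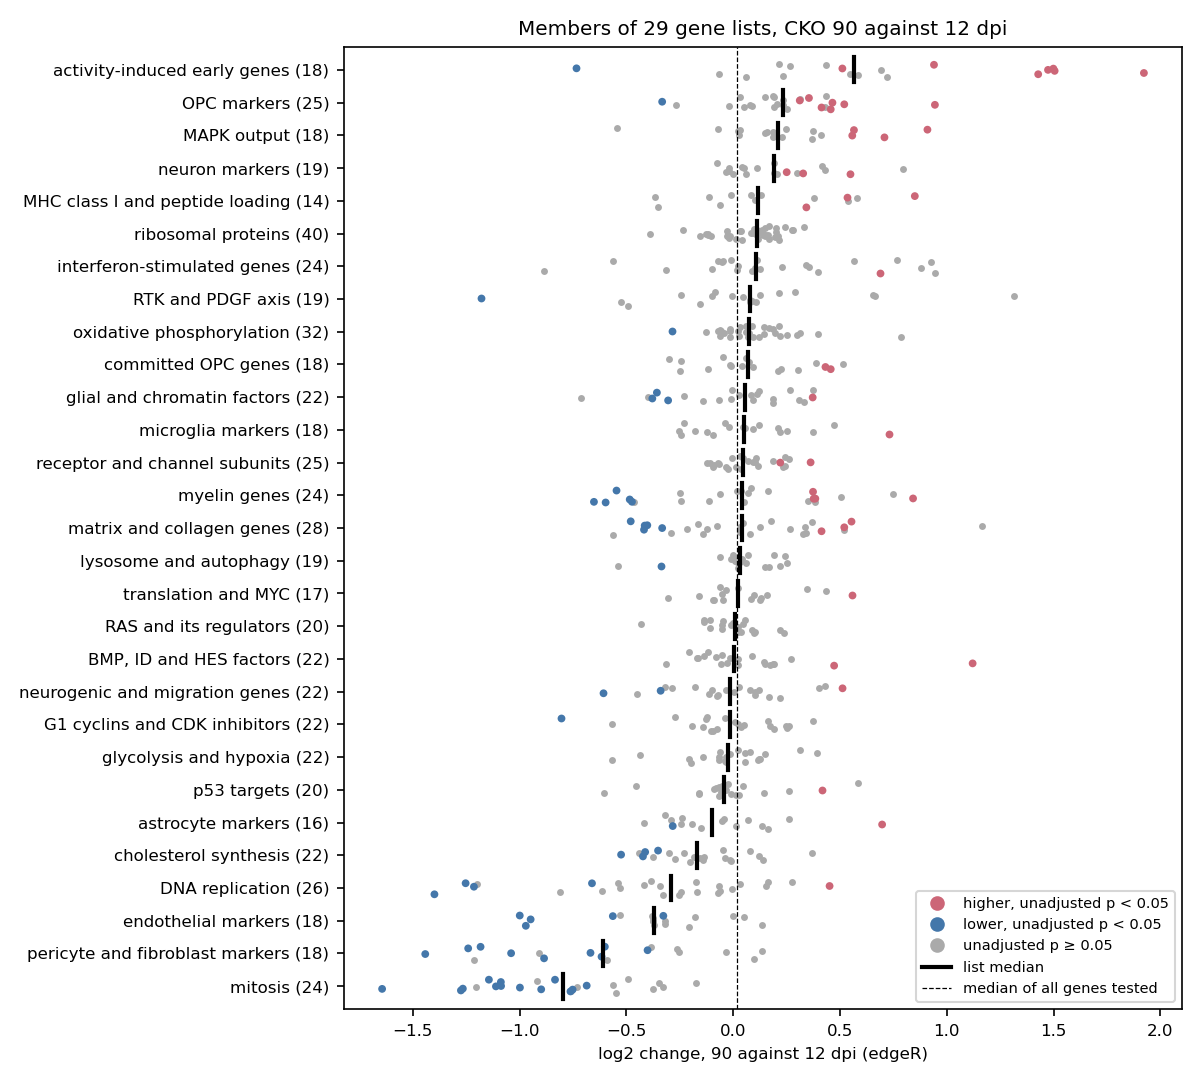
Log2 difference, 90 minus 12 dpi, of each tested member of the lists other than haemoglobin genes. Each point is 1 gene, coloured points have an unadjusted p under 0.05, black bars are list medians, and the dashed line is the median of all genes; the mitosis list lies wholly below 0 and 16 of 18 early genes lie above it.

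Genes of mitosis were lower at 90 dpi. Of 25 listed genes 24 were tested, 0 were higher and 24 lower, beside 53.2% and 46.8% of all genes, and 13 of the 24 were lower at an unadjusted p under 0.05, beside 3.32% of all genes. None passed adjustment over all genes by edgeR, while DESeq2 called Cenpf and Top2a of them. Top2a, the topoisomerase that untangles chromosomes before they part, lay at 17.1, 24.7 and 29.5 CPM at 12 dpi and at 1.97, 9.78 and 18.6 CPM at 90 dpi (log2 -1.14, SE 0.29, unadjusted p = 0.00115). Only 1 animal at 90 dpi, CKO_20647, was inside the 12 dpi range. Its first library held Top2a at 30.79 CPM and its second at 0.4341 CPM. Cenpf, a kinetochore protein, lay at 7.92, 14.0 and 21.3 CPM and at 0.984, 7.18 and 8.98 CPM (log2 -1.27, SE 0.31, unadjusted p = 0.000751). The highest 90 dpi value of Cenpf was again that of animal CKO_20647, with 14.53 CPM in its first library and 0.5967 CPM in its second. Ccna2, the cyclin of S phase and entry into mitosis, lay at 9.17, 12.6 and 22.5 CPM and at 5.41, 7.61 and 10.95 CPM (log2 -0.83). The antigen Mki67, the usual mark of cycling cells, lay at 16.7, 40.9 and 44.0 CPM against 1.23, 17.6 and 26.3 CPM (log2 -1.09, unadjusted p = 0.0114). Ncaph and Nuf2, parts of condensin and of the kinetochore that are not in the list and are named after their values were seen, did not overlap between groups. The lack of overlap rests partly on the second library of animal CKO_20647. In its first library Nuf2 lay at 3.82 CPM and Ncaph at 2.79 CPM, near the lowest 12 dpi animals (3.75 and 2.87 CPM). In its second library they lay at 0.756 and 0 CPM. Ncaph lay at 2.87, 3.65 and 6.51 CPM at 12 dpi and at 0.841, 1.26 and 1.67 CPM at 90 dpi (log2 -1.50, SE 0.30, adjusted p = 0.261).

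The spread of the mitosis list between animals was wide at 90 dpi. The mean deviation of its genes from their mean over the 14 animals (log2 CPM) ran from 0.115 to 0.865 at 12 dpi and from -2.22 (animal CKO_22149) to 0.53 (animal CKO_20647) at 90 dpi, and 5 of 7 animals at 90 dpi lay below all at 12 dpi. Without animal CKO_22149 the list median was -0.67, without animal CKO_20647 it was -0.95, and without the second library of the latter it was -0.69 with 10 genes lower at an unadjusted p under 0.05. The median was -0.92 in females and -0.63 in males. Animals CKO_22149 (-2.22) and CKO_22146 (-0.80) had the lowest mean deviations. They also held the fewest counts at 90 dpi (4.22 and 4.11 M), and the part of depth was not tested. Wild-type OPCs had a median of -0.63 over 18 tested members, 6 of them higher (50.1% of all genes there), and the 10-cell CKO libraries a median of 0.15. The level of Top2a, scaled over all bulk animals, was 23.1 CPM in CKO at 12 dpi, 10.7 CPM at 90 dpi and 342.5 ± 223 CPM (SD, n = 7) in the tumors.

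Promoters of the mitosis genes are shown for Cenpf and Top2a, the list's members that DESeq2 called, as the 250 bases before the RefSeq start (GRCm38.p6, read 5′ to 3′ on the gene's strand). Capitals mark CCAAT, the letters bound by NF-Y, and TTTGAA, the letters of the cell cycle homology element, each also in reverse complement (ATTGG and TTCAAA). The Cenpf promoter is chr1:189688087-189688336 and the Top2a promoter is chr11:99024190-99024439, both on the minus strand.
Cenpf: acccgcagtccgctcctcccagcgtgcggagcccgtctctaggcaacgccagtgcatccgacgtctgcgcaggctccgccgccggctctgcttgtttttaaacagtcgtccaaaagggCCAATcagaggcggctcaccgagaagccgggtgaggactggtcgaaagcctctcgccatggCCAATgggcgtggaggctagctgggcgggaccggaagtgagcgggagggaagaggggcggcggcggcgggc
Top2a: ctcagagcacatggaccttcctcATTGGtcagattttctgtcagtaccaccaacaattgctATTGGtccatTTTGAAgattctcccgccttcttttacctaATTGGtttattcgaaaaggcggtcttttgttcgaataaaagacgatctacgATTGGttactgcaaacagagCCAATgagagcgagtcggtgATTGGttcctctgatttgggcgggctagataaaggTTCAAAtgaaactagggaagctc
Cenpf holds CCAAT 132 and 71 bases before its start. Top2a holds 6 copies of CCAAT or ATTGG, the nearest 58 bases before its start, and TTTGAA or TTCAAA at 179 and 23 bases. Of 21 genes of the list with a promoter in the table, 18 (85.7%) held CCAAT on either strand, where 37.5% of all 27025 genes did, and 8 (38.1%) held TTTGAA, where 18.3% of all genes did. These matches describe letters and show no binding.

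Genes of DNA replication were less uniform. Of 26 tested 5 were higher and 21 lower, with 1 and 4 at an unadjusted p under 0.05, and the median was -0.29. Rrm2, which makes the deoxynucleotides, lay at 2.92, 4.70 and 7.24 CPM at 12 dpi and at 1.11, 1.78 and 3.75 CPM at 90 dpi (log2 -1.21, unadjusted p = 0.00199). Uhrf1, which carries DNA methylation through replication, had a log2 difference of -1.40, and Chaf1b, a histone chaperone, of -1.25. Part of these low values came from the second library of animal CKO_20647, where all 3 genes lay at 0 CPM. In its first library Rrm2 lay at 6.308, Uhrf1 at 1.346 and Chaf1b at 0.998 CPM. The mean level of the replication list was 3.161 in the first library and 0.8436 in the second. Pcna, the sliding clamp, went the other way at 40.4, 55.0 and 63.9 CPM against 48.8, 69.5 and 101.3 CPM (log2 0.45, unadjusted p = 0.0154). Pcna and Uhrf1 each have a near-identical copy that could share reads. The list of G1 cyclins and CDK inhibitors had a median of -0.02, with 11 of 22 higher. Its Cdkn2c, an inhibitor of CDK4 and CDK6, lay at a median of 4.82 CPM at 12 dpi and 2.21 CPM at 90 dpi with overlap. In animal CKO_20647 Cdkn2c lay at 3.723 CPM in the first library and at 0 CPM in the second.

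**Figure D3:**
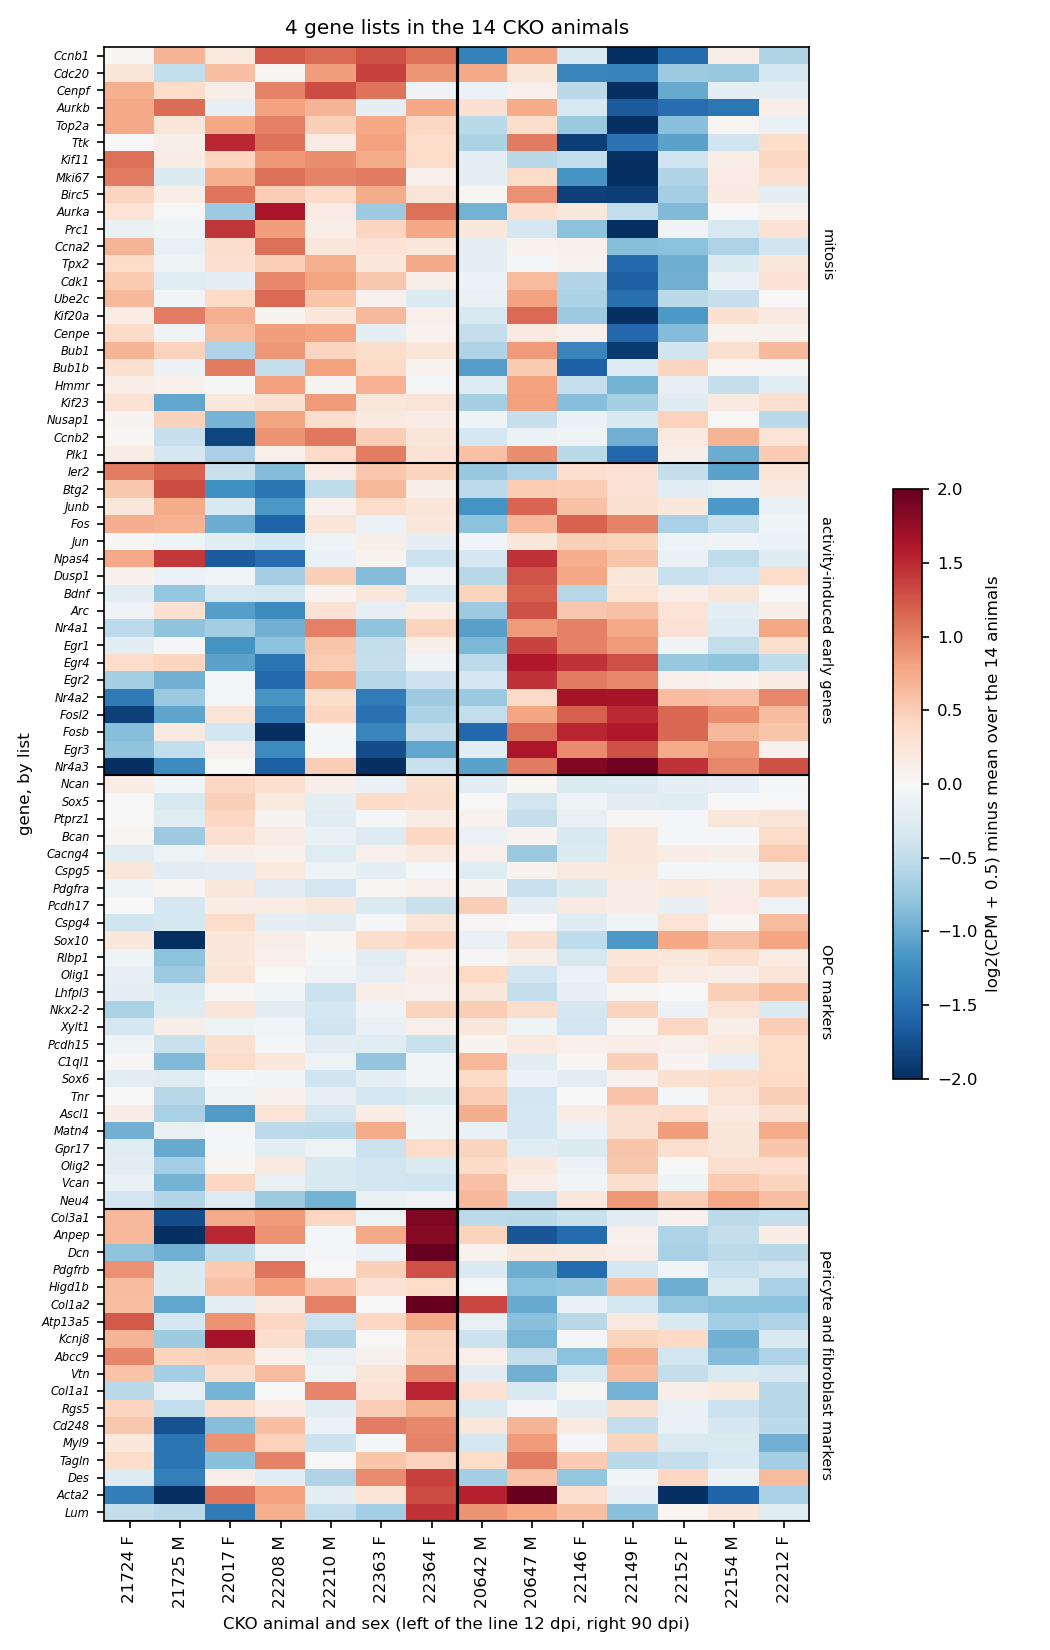
Log2 (CPM + 0.5) of the members of 4 lists (mitosis, activity-induced early genes, OPC markers, pericyte and fibroblast markers) in each of the 14 animals, as the deviation from the gene's mean. Rows are genes and columns are animals by time; the mitosis rows are lowest in animal CKO_22149 at 90 dpi.

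Early genes that are switched on within minutes of calcium or growth factor signals were higher at 90 dpi. Of 18 tested 16 were higher, with 7 higher and 1 lower at an unadjusted p under 0.05 (4.18% and 3.32% of all genes). None was called by edgeR, and DESeq2 called Egr3. Egr3, a zinc finger factor, lay at 74.1, 146 and 275 CPM at 12 dpi and at 217, 464 and 779 CPM at 90 dpi (log2 1.51, SE 0.31, edgeR adjusted p = 0.261). The groups overlapped in that range. Nr4a3, an orphan nuclear receptor, lay at 13.5, 32.9 and 112 CPM against 37.5, 192 and 308 CPM (log2 1.92, SE 0.48), and Fosl2, an AP-1 subunit, at 60.6, 108 and 303 CPM against 159, 425 and 631 CPM (log2 1.47). Nr4a2 lay at 22.7, 36.7 and 78.7 CPM against 36.5, 94.5 and 197 CPM, and Fosb at 12.6, 41.3 and 65.5 CPM against 19.0, 125 and 176 CPM. Not all early genes did so, since Fos had a log2 difference of 0.21 and Ier2 was lower by its values (-0.73). The mean deviation of the list lay between -1.22 and 0.26 (log2 CPM) at 12 dpi, and 3 of the 7 animals at 90 dpi were above that range, CKO_20647 (0.9642), CKO_22146 and CKO_22149, while animal CKO_20642 was at -0.64. Animals CKO_22146 and CKO_22149 held the fewest counts at 90 dpi (4.11 and 4.22 M). Without the second library of animal CKO_20647 the median of the list was 0.34. In that fit 6 were higher and 0 lower at an unadjusted p under 0.05. The median in wild type was 0.30, with 15 of 18 higher (50.1% of all genes there). In the 10-cell libraries it was 0.32, but with 9 of 17 higher and 8 lower. Neurons express such genes when active, the summed neuron markers given above were also highest in animal CKO_20647, and their part in the result was not tested.

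Among the early genes with the smallest p and a promoter in the table, copies of TGACG were counted in Fosl2, Nr4a3 and Nr4a2. TGACG, or CGTCA in reverse complement, is the core of the cyclic AMP response element TGACGTCA. Nr4a3 and Nr4a2 held 4 copies each and are shown for that reason, with the copies in capitals. Fosl2 held 0 copies of TGACG and 0 of TGACGTCA and is not shown. The window is again the 250 bases before the RefSeq start, at chr4:48045055-48045304 on the plus strand for Nr4a3 and chr2:57124004-57124253 on the minus strand for Nr4a2.
Nr4a3: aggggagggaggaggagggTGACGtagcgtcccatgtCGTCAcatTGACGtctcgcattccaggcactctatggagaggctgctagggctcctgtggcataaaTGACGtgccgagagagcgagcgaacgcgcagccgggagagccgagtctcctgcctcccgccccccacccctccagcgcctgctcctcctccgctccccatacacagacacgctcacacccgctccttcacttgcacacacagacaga
Nr4a2: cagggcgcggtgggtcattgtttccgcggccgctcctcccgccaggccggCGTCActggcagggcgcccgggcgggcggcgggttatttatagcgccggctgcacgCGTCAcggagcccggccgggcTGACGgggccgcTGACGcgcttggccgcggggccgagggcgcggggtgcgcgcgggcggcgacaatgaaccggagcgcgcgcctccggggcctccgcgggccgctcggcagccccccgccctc
Of 14 early genes with a promoter in the table, 12 (85.7%) held TGACG on either strand in at least 1 promoter, where 19.8% of all genes did. Counted over promoters, of which these genes have several, the share was 58.3% against 17.8%. The whole element TGACGTCA stood in 2 of the 14 (14.3%, against 1.77% of all genes), and a CArG box, the site of serum response factor, in 1 (7.14%, against 1.62%). Of the mitosis genes 4 of 21 (19.0%) held TGACG. The TGACG search was added after a promoter had been seen, and every TGACGTCA also holds it.

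Markers of OPCs tended to be higher at 90 dpi. Of 25 tested 22 were higher, 7 of them at an unadjusted p under 0.05, and 1 was lower at that p; the median was 0.23, against -0.07 in the 10-cell libraries and 0.02 in wild type. Olig2, the transcription factor that specifies the lineage, lay at 46.3, 60.7 and 85.1 CPM at 12 dpi and at 68.5, 93.7 and 109 CPM at 90 dpi (log2 0.46, unadjusted p = 0.00396). The groups overlapped for it. Vcan, a matrix proteoglycan of OPCs, had a log2 difference of 0.52, Gpr17, a receptor of cells about to differentiate, of 0.46, and Tnr, a tenascin, of 0.41. The receptor Pdgfra (0.09) and the NG2 gene Cspg4 (0.19) differed less. The proteoglycan Ncan was the member lower at an unadjusted p under 0.05, at 462, 563 and 678 CPM against 415, 449 and 520 CPM (log2 -0.33). Without the second library of animal CKO_20647, 22 of 25 were again higher, 10 at an unadjusted p under 0.05, and Neu4 was called.

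Genes of later stages of the lineage were mixed. Of 18 genes of committed OPCs 11 were higher (median 0.07), among them Bcas1, a marker of newly formed oligodendrocytes (log2 0.43). Of 24 myelin genes 14 were higher, with 4 higher and 5 lower at an unadjusted p under 0.05 and a median of 0.04. Gjc3, a connexin of oligodendrocytes, was higher by 0.84 on the log2 scale, and Qdpr, Trf and Car2 were the other 3. Those lower were Mal (-0.65), Opalin (-0.60), Tspan2 (-0.55), Mobp (-0.48) and Mog (-0.47), which are structural or surface proteins of mature myelin. Part of their size came from animal CKO_20647, with Mal at 115.1 CPM in its first library and at 0 CPM in its second. Without that second library the differences were -0.60, -0.52, -0.48, -0.44 and -0.40 in the same order. Each still had an unadjusted p under 0.05. Gjc3 was higher by 0.88 without it. In wild-type OPCs the myelin list had a median of -0.58 and 7 called genes, where 2.08% of all genes were called, and in the 10-cell libraries its median was 2.06.

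Readouts of RAS signalling were examined because both groups lack Nf1. Of 18 genes that report MAPK activity 16 were higher at 90 dpi, 4 at an unadjusted p under 0.05, with a median of 0.21, and none was called. Spred1, a feedback inhibitor that recruits neurofibromin, lay at 193, 227 and 335 CPM at 12 dpi and at 250, 345 and 472 CPM at 90 dpi (log2 0.56, unadjusted p = 0.00117). Its change in wild type was -0.03, and the difference between genotypes was 0.55 (unadjusted p = 0.012, not called). Etv5, an ETS factor downstream of ERK, had a log2 difference of 0.57, Spred3 of 0.71 and Fosl1 of 0.91 (0.45, 0.50 and 0.61 without the second library of animal CKO_20647). The list's mean deviation was highest in animal CKO_20647 (0.5078), and without that animal's second library the median was 0.24 with 3 genes higher at an unadjusted p under 0.05. In wild type the list had a median of -0.03, with 8 of 17 higher. There 3 were higher and 1 lower at an unadjusted p under 0.05. Scaled over all bulk animals, wild-type Etv5 lay at 70.8 ± 7.7 CPM at 12 dpi and 117.8 ± 25.6 CPM at 90 dpi (SD, n = 5). Wild-type Spred3 went the other way, at 13.1 ± 3.4 and 10.9 ± 1.7 CPM. RAS genes and their regulators had a median of 0.01, with 10 of 20 higher and 0 at an unadjusted p under 0.05. Targets of p53 had a median of -0.04 over 20 tested, and only Plk2 had an unadjusted p under 0.05 (log2 0.42, and 0.29 without the second library of animal CKO_20647).

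Receptor tyrosine kinases had a median of 0.08, with 11 of 19 higher. The receptor Pdgfrb, which marks pericytes in brain, was the member with an unadjusted p under 0.05. It lay at 12.9, 23.0 and 39.1 CPM at 12 dpi and at 5.09, 12.1 and 15.2 CPM at 90 dpi (log2 -1.18, SE 0.25, edgeR adjusted p = 0.387), with 6 of 7 animals at 90 dpi below all at 12 dpi. Met, the receptor of hepatocyte growth factor, lay at 7.58, 10.7 and 18.3 CPM at 12 dpi and at 5.90, 9.89 and 352.6 CPM at 90 dpi. The highest value was that of animal CKO_20647 alone, and the log2 difference (1.32, SE 0.93) did not pass the test. Without the second library of that animal, in which no read of Met was counted, it was 1.62 (edgeR adjusted p = 0.685).

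Vascular genes were lower. Of 18 pericyte and fibroblast markers 2 were higher and 16 lower, 9 at an unadjusted p under 0.05, and the median was -0.61, against -0.01 in wild type and -0.60 in the 10-cell libraries. Without the second library of animal CKO_20647 it was -0.55 with 8 such genes. The median was -0.93 in females and -0.22 in males. The summed level of 6 pericyte markers lay at 205, 379 and 576 CPM at 12 dpi and at 203, 244 and 363 CPM at 90 dpi, so the groups overlapped. Endothelial markers had a median of -0.37, with 2 of 18 higher and 5 lower at an unadjusted p under 0.05, among them Cldn5, Tie1 and Flt1. With 1 animal left out the endothelial median ran from -0.419 to -0.2523 and the pericyte median from -0.7433 to -0.3905. The weakest median of each list came without the 12 dpi animal CKO_22364. Its mean deviation was 1.388 log2 CPM for pericyte markers, where the next animal had 0.5775. For endothelial markers it was 0.9191 log2 CPM, where the next animal had 0.2808. Animal CKO_20647 had the lowest mean deviation for endothelial markers (-0.5385 log2 CPM). Cldn5 lay at 5.894 CPM in its first library and at 0 CPM in its second. The 3 red blood cell markers lay at 1.55, 1.83 and 3.97 CPM against 0.763, 4.43 and 72.2 CPM, the highest in animal CKO_22149, and their part in these results was not tested. Pdgfrb is in the pericyte list too, and DESeq2 called it together with Atp13a5, another pericyte gene. The difference between genotypes for Pdgfrb was -1.39 (unadjusted p = 0.00086, not called).

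**Figure D4:**
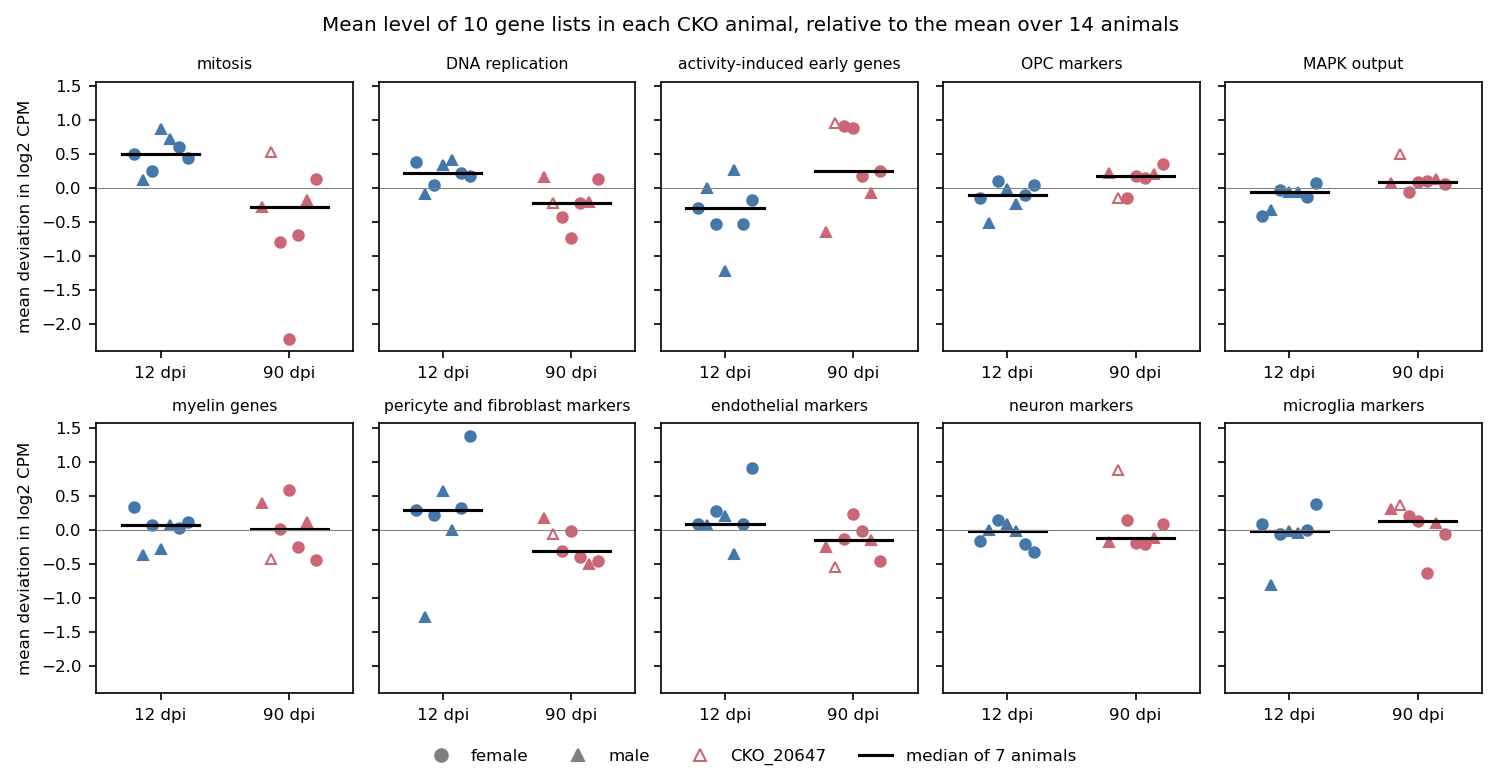
Mean deviation of the members of 10 lists in each animal, in log2 CPM from the gene's mean over 14 animals, with the 2 times on the x axis. Circles are females, triangles are males and the open triangle is animal CKO_20647; its neuron markers lie at 0.8876 and its MAPK output genes at 0.5078.

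The sign of the neuron list turned on the second library of animal CKO_20647. The list had a median of 0.19 with 15 of 19 higher, and without that library it had a median of -0.07 with 7 of 19 higher. Vsnl1, a neuronal calcium sensor, lay at 117, 168 and 201 CPM at 12 dpi and at 130.1, 162.6 and 1273 CPM at 90 dpi, the last in that animal (log2 0.80, and -0.04 without the library). Microglial markers had a median of 0.05 and astrocyte markers of -0.10, with 10 of 18 and 6 of 16 higher.

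Genes of MHC class I and peptide loading had a median of 0.12, with 9 of 14 higher and 3 of them at an unadjusted p under 0.05. H2-D1, a classical class I chain, lay at 15.4, 30.9 and 36.5 CPM at 12 dpi and at 29.3, 52.6 and 82.9 CPM at 90 dpi (log2 0.85, unadjusted p = 0.00254). B2m, its light chain, had a log2 difference of 0.54 and H2-K1 of 0.34. Animal CKO_20647 was the highest for the list (0.8243 log2 CPM above the mean), and without its second library the median was 0.22 with 10 of 14 higher. Interferon-stimulated genes had a median of 0.11. Cholesterol synthesis, which myelin-forming cells use heavily, had 4 of 22 genes higher and a median of -0.17, with 4 genes lower at an unadjusted p under 0.05 (10 without the second library of animal CKO_20647), among them Hmgcs1 (-0.35), Lss (-0.42) and Nsdhl (-0.41). Among chromatin and glial factors Dnmt3a, a DNA methyltransferase, lay at 223, 265 and 306 CPM against 159, 212 and 247 CPM (log2 -0.36), and Ezh2, the Polycomb methyltransferase, had a log2 difference of -0.38. The lists of oxidative phosphorylation (0.07) and ribosomal proteins (0.11) had medians near 0, where wild type had -0.40 and -0.32.

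**Figure D5:**
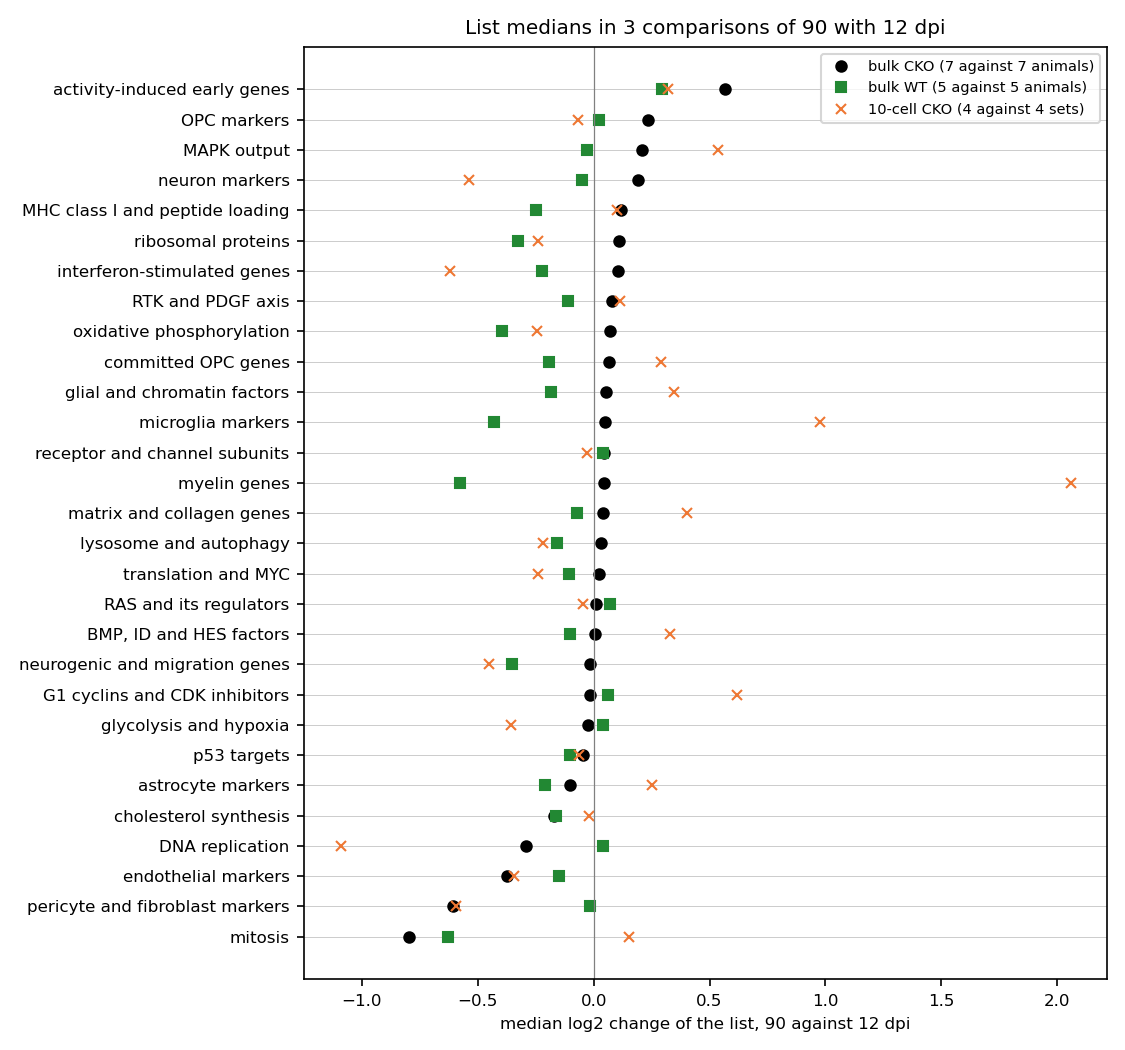
Median log2 difference, 90 minus 12 dpi, of each list in bulk CKO, bulk wild type and the 10-cell CKO libraries. The x axis is log2, each point is the median over tested members and none is tested as a list; the mitosis median is -0.80, -0.63 and 0.15 in the 3 data sets.

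Some of the genes with the smallest p are in no list. Rasl10a, a small GTPase named after its values were seen, lay at 5.41, 6.31 and 9.59 CPM at 12 dpi and at 1.72, 2.89 and 3.59 CPM at 90 dpi without overlap (log2 -1.33, SE 0.25, edgeR adjusted p = 0.18). Its reads could be shared with Gas2l1 on the other strand, since strand use in counting was not stated. The 12 genes higher with the smallest p among those above the median level were Neu4, Egr3, Rpl30, Itga9, Frmd6, Irs2, Tmcc3, Cdh7, AC113124.1, Cpeb3, Sema3d and Fosl2, of which Neu4, Egr3 and Fosl2 are list members described above, and none was called by edgeR. AC113124.1 and Cpeb3 hold identical values in the table and count as 1. Among the 12 lower genes were Dcakd, Slc6a11, Dpysl5, Axin2, Clcn7, Ncan, Dpysl3, Igf2, Gm10721, Slc41a1 and Pank2. Of these Axin2 is a feedback target of WNT signalling, Dpysl3 and Dpysl5 act in growing axons, and Slc6a11 takes up GABA. Gm10721 has 7 near-identical copies.

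Of the higher genes that are in no list, 5 are given with their values. Itga9, an integrin chain that binds tenascins, lay at 11.2, 14.4 and 21.0 CPM at 12 dpi and at 18.0, 29.9 and 34.0 CPM at 90 dpi (log2 0.83, SE 0.19, edgeR adjusted p = 0.387). Irs2, an adaptor of the insulin and IGF receptors, lay at 56.9, 70.8 and 124 CPM against 106, 141 and 241 CPM (log2 0.89). Sema3d, a secreted guidance protein, lay at 22.1, 37.4 and 58.1 CPM against 55.5, 62.4 and 92.5 CPM (log2 0.78). All 3 overlapped between the groups. Cdh7, a cadherin, and Frmd6, a protein of the Hippo pathway, had log2 differences of 1.06 and 0.90. In both the highest animal was CKO_20647, and without its second library the differences were 0.77 and 0.72.

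Of the lower genes, Slc6a11 lay at 293, 394 and 543 CPM at 12 dpi and at 189, 288 and 348 CPM at 90 dpi (log2 -0.53, SE 0.14, edgeR adjusted p = 0.427). Axin2 lay at 25.8, 29.8 and 35.4 CPM against 14.7, 19.1 and 28.5 CPM (log2 -0.52). Clcn7, a chloride transporter of lysosomes, lay at 29.2, 31.5 and 32.5 CPM against 20.7, 24.1 and 27.4 CPM without overlap, a log2 difference of -0.37. Igf2, a growth factor made in brain by vascular and meningeal cells, lay at 11.3, 27.1 and 56.1 CPM against 10.3, 12.7 and 23.8 CPM (log2 -0.97). DESeq2 also called 2 low genes named after their values were seen. Aplnr, the apelin receptor found on endothelial cells, lay at 1.09, 2.71 and 3.51 CPM against 0, 0.611 and 1.21 CPM. Slc22a8, an organic anion transporter of brain vessels, lay at 8.01, 20.9 and 27.1 CPM against 5.82, 9.42 and 13.5 CPM.

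The remaining lists had medians near that of all genes. Matrix and collagen genes had a median of 0.04, with 3 higher and 5 lower of 28 at an unadjusted p under 0.05, and among the lower ones were Fn1, the fibronectin gene (-0.48), and Col4a1 and Col4a2, collagens of basement membranes (-0.41 and -0.40). Receptor and channel subunits had a median of 0.05 with Gabrb1 (0.36) and Kcnd2 (0.22) higher at that p. Gabrb1 was highest in animal CKO_20647, and its difference was 0.15 without that animal's second library. The lists of BMP, ID and HES factors and of neurogenic and migration genes had 11 of 22 members higher each. Glycolysis and hypoxia (-0.02), translation and MYC (0.02) and lysosome and autophagy (0.03) held 0 to 1 member at that p in either direction.

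The change over the same times in wild-type OPCs gives the reference for age, with a limit in depth. At 90 dpi the lowest wild-type values of Trp53 and Nr4a3 and the highest of Reep6 were all 9.479 CPM. Equal values in unrelated genes read as 1 count in an animal with few counts. Wild-type values and differences between genotypes, here and above, rest partly on that animal. In wild type 295 of 14200 genes were called by edgeR (2.08%), 80 higher (0.563%) and 215 lower (1.51%). That count ran from 49 to 600 when 1 animal was left out, with 466 without animal WT_21167. It was 1 when all 37 bulk animals were fitted together. A count of calls is not a measure of how far the genotypes differ, and the difference itself was tested in 1 model of 24 animals. No gene of 15735 was called there by edgeR (1545 had an unadjusted p under 0.05, 9.82%). Without animal WT_21167 edgeR called 0 of 16050 genes, and 1625 had an unadjusted p under 0.05. With all 24 animals DESeq2 called 109 of the 10191 genes to which it gave an adjusted p, 95 higher and 14 lower. The named genes with the smallest unadjusted p were Gjc3 (CKO change minus wild-type change 1.63 on the log2 scale, p = 8.34e-05), Dnmt3a (-0.61, p = 0.00033), Sema3d (1.10, p = 0.000587), Rpl30 (1.21, p = 0.000587) and F3, the tissue factor gene (1.54, p = 0.000701). Among the 10-cell CKO libraries, summed into 4 sets at each time, edgeR called 0 of 14500 genes (1034 at an unadjusted p under 0.05, 7.13%). DESeq2 called 273 of 14500 in these sets, 151 higher and 122 lower.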

How the data were processed

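The authors deposited a table of expected counts per gene for 34623 genes, made with RSEM and Bowtie2 on GRCm38 per the submitters' processing notes (versions not given in the sources used here), together with 92 spike-ins that held 0 counts in these animals. Whether the counting used strand was not stated. Expected counts were rounded, and the libraries of an animal were summed. The 14 CKO animals were fitted alone with edgeR 4.0.16 (TMM scaling, genes kept by a minimum count of 10 and a minimum total of 15, quasi-likelihood F test, sex as covariate) in R 4.3.3, with limma 3.58.1. P-values were adjusted by Benjamini-Hochberg across every gene tested, and a gene was called below 0.05. Alternatives were DESeq2 1.42.0, other scaling and filters, no covariate, robust fitting, the deepest library per animal, joint fits with other bulk groups, 1 sex, and each animal left out. The fit without 1 library was added after seeing the data. CPM are TMM-scaled, and per-animal deviations use a prior count of 2. Single values were compared by two-sided exact permutation over 3432 assignments, whose smallest p is 0.000583. Scripts were tested on simulated data.

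Genes were named as Nf1 and Trp53, the 12 higher and 12 lower genes with the smallest p above the median level, up to 3 in each direction per list, and up to 6 genes called in the difference between genotypes. The members and lists were chosen with earlier results of these data known, and lists are described by counts and medians with no test. The labels name no sequencing batch. Near-identical copies (BLAST 2.17.0+) were found for 8 of 113 named genes, and 23 overlap a gene on the other strand. Promoters are from RefSeq. Some named genes are not reported here.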

Additional observations from a re-analysis of the deposited data

Results flagged for a closer look

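Single animals that lay far from the other 6 of their group were looked for among 244 groups of values (named genes and list means), with Dixon's test at the 95% level, which chance alone flags in about 1 of 20. It picked out 27, and 14 of them were animal CKO_20647 at 90 dpi, whose second library stood apart. In that animal Nf1 (303.4 CPM against 204.3 in the next animal), Frmd6 (141.2), Cdh7 (61.71), Nefl (224.7), Slc12a5 (640.9), Spred3 (38.21), Plk2 (171.4), Gabrb1 (341.9), Dll3 (10.03) and Smad1 (151.4 CPM) were high and Tet1 (76.41 CPM) was low. Its mean deviation from the 14-animal mean was high for neuron markers (0.8876 log2 CPM), MAPK output genes (0.5078) and MHC class I genes (0.8243). These did not all come from its second library. The mean level of neuron markers was 7.74 in the first library and 9.165 in the second. MAPK output genes lay at 5.352 and 4.743 and MHC class I genes at 3.601 and 2.067, both higher in the first.

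Other animals at 90 dpi stood out for 1 value each. Gm10721 lay at 35.45 CPM in animal CKO_20642, where the next animal had 4.245 CPM, Slc41a1 at 52.16 CPM in animal CKO_22212, and Cldn5 at 10.33 CPM in animal CKO_22149, while microglial markers were low in animal CKO_22152 (-0.6321 log2 CPM).

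At 12 dpi animal CKO_22017 had high Uhrf1 (10.67 CPM) and Spred1 (335.0 CPM) and low Cdkn2c (1.447 CPM). Animal CKO_21725, the shallowest, had high Gad1 (1356 CPM) and Slc12a5 (368.6 CPM) and low microglial markers (-0.8002 log2 CPM). Mal lay at 371.0 CPM in animal CKO_21724, and in animal CKO_22364 Fn1 lay at 188.9 CPM and the receptor tyrosine kinase list at 0.275 log2 CPM.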

How the results depend on the processing

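No paired analysis was possible because the animals at 12 and 90 dpi share no animal number. The count of called genes in CKO was 1 with RLE scaling, a minimum mean of 10 CPM, no sex covariate and robust fitting. It was 34 with DESeq2, 5 without a filter, 4 with the deepest library of each animal, 4 without the second library of animal CKO_20647, and 2 in a fit of 24 animals. It was 0 in the fit of 37 animals, with animals of 1 library only, without animals CKO_20642 and CKO_20647, in females alone and in males alone, and 0 to 2 with 1 animal left out. Susd5 kept its sign in all 28 alternatives (log2 1.18 to 1.66) and was called in 14 of them; the fits of 1 sex hold fewer animals. The wild-type count was 773 with DESeq2, 614 without a filter, 1 in the fit of 37 animals, 466 without animal WT_21167 and 49 to 600 with 1 animal left out. The difference between genotypes had 109 calls with DESeq2 and 53 without a filter, and the 10-cell comparison 273 with DESeq2. Among 87 named genes 2392 of 2424 alternative values kept sign and call, 21 became called and 11 changed sign. Nf1 changed sign at a minimum mean of 10 CPM (-0.0127), with the deepest library (-0.0747), with single-library animals (-0.163), without animals CKO_20642 and CKO_20647 (-0.152), in females (-0.178), without the second library of CKO_20647 (-0.102) and in 3 leave-one-out fits (over all 14 such fits it ran from -0.0984 to 0.0731). In males Slc1a3 was at 0.0813 and Gad1 at -0.0159. List medians stayed within their spread in 805 of 839 values, and the haemoglobin list, -0.40 on its 1 tested gene, was at 5.14 without a filter. The cause of these shifts was not tested. With a median depth of 16.0 and 19.1 M counts, low genes such as Ncaph rest on few counts.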

Other observations

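Animal CKO_20647 at 90 dpi held a second pattern, in its first library, which did not stand apart in the number of genes detected. Genes were looked at here after their values were seen, and CPM of single libraries and tumors are given without TMM scaling. Met lay at 592.6 CPM in that library and at 0 in the second library of the animal, while the 16 libraries of the other CKO animals lay between 3.51 and 19.2 CPM and the 16 wild-type libraries between 0.863 and 10.7 CPM. Genes beside Met on chromosome 6 (GRCm38) were high in the same library. Tes (chr6:17065149-17105828), a focal adhesion protein, was at 85.2 CPM against a highest value of 8.83 CPM in the 16 libraries. Cav2 (chr6:17281185-17289115) was at 499.0 CPM against 42.8 CPM, and Cav1 (chr6:17306335-17341452) was at 269.6 CPM against 61.3 CPM; both encode caveolins. Met itself spans chr6:17463800-17573980. On the far side of Met the values ended within the range of the others. Capza2 (chr6:17636234-17666972), a capping protein of actin, was at 250.6 CPM against 193.6 to 267.2 CPM, and St7 (chr6:17692933-17943025) was at 34.4 CPM against 30.5 to 61.4 CPM. Of the 8 genes within 1 Mb of Met with a median above 1 CPM, the 4 high ones were neighbours and the other 4 lay on 1 side.

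The same library held Ccnd1, the D cyclin that receptor signalling induces, at 229.6 CPM against a highest value of 85.4 CPM, and Tnc, a tenascin, at 177.0 CPM against 15.0 CPM. Among the 7 tumors at 150 dpi, Met had a median of 15.6 CPM, and 2 lay far above it, at 227.2 and 2673 CPM. In the tumor highest for Met, Ccnd1 was at 2593 CPM, the highest of the 7. The next tumor for Ccnd1 was close to it at 2399 CPM, and the lowest had 299.9 CPM. The highest Cav1 (663.5 CPM) was in another tumor. No replicate exists for the first library of animal CKO_20647, and no cause of these values was tested.

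The second library of that animal held other genes. Kit was at 265.9 CPM (16 libraries 20.8 to 50.9 CPM), Vsnl1 at 2060 CPM (123.1 to 293.6 CPM) and Slc17a7, the vesicular glutamate transporter of cortical excitatory neurons, at 884.9 CPM (22.8 to 171.7 CPM). The high values of Met and Ccnd1 in the sum of the animal thus come from 1 library and those of Kit and Vsnl1 from the other.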
